A study of Marchantia polymorpha and Arabidopsis thaliana with 40 samples.

Results

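Chromatin accessibility was compared between the hsfa1 knockout and wild-type Tak-1 of the liverwort Marchantia polymorpha in 8 of the 40 ATAC-seq libraries of the series, 4 of hsfa1 and 4 of Tak-1. They were chosen by their column names in the count table of the abscisic acid (ABA) experiment, and all 53390 regions of that table were kept. The plants were gemmalings, which grow from asexual buds, taken at day 7 after continuous light at 22 °C, and none of these libraries was heated. The hsfa1 libraries came from the knockout line a1-8 and the Tak-1 libraries from the male wild-type accession. Each line had 2 libraries in the 50 µM ABA arm (2 h) and 2 in the mock arm, which received 20% ethanol. The sample titles and the column names of this table state opposite arms for every library, so the arms are called column ABA and column CK here, and which of them received ABA cannot be told apart. The comparison of hsfa1 with Tak-1 does not depend on it, because each line has 2 libraries under each name and the column name was a term of the fit.

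ATAC-seq uses the Tn5 transposase, which cuts and tags DNA where it is not packed in nucleosomes, so the number of reads on a region reflects how open it was in the sorted nuclei. Heat shock factors are transcription factors that bind heat shock elements in promoters and drive the genes of chaperones under heat. Class A factors carry an activation domain, HSFA1 being a master regulator of the heat response in plants, while class B factors such as HSFB1 lack it and often act as repressors. In unstressed plant cells HSFA1 is known to be held inactive by chaperones. ABA is the hormone of drought and desiccation responses. The comparison asks which regions differ between hsfa1 and Tak-1 without heat.

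Further lines of the same table served as a second comparison, the hsfa1 hsfb1 double knockout (dko, line a1,b1-62) against the hsfb1 knockout (line b1-70), with 4 libraries each and none shared with hsfa1 or Tak-1. In both comparisons the first line differs from the second by the label of an hsfa1 knockout. The same hsfa1 and Tak-1 lines were also measured in separate libraries of a heat experiment, with 2 libraries per line at 22 °C and 2 per line after 1 h at 37 °C. Each knockout is represented by a single line, so a difference between hsfa1 and Tak-1 can belong to the gene or to the line, and these cannot be told apart. No genome of the build of these files was used here, so regions are given by their coordinates in the files, without gene names, motifs or sequences, and the targeted gene was not examined. Region starts are printed as deposited, and whether they count from 0 or from 1 is not given. The labels do not say that replicates came from separate cultures, so p-values measure the spread between these libraries.

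The 8 libraries held 32.7 to 47.0 M counts in hsfa1 and 37.8 to 46.9 M counts in Tak-1, with a median of 294 to 414 counts per region in hsfa1 and 319 to 410 in Tak-1. In both lines and under both column names, the library numbered replicate 2 was the deeper. Regions on the male sex chromosome V took 0.452 to 0.805% of counts in hsfa1 libraries and 0.441 to 0.712% in Tak-1 libraries, against 0.0323 to 0.0659% and 0.0359 to 0.0543% on the female chromosome U. In each group the V share was higher in replicate 1 than in replicate 2. Rank correlations over all regions were 0.983 to 0.990 between an hsfa1 and a Tak-1 library and 0.988 to 0.993 between replicates of a group.

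Few regions differed strongly between hsfa1 and Tak-1, and the largest differences were near-complete losses or gains of accessibility at single sites. Of 53379 regions tested with edgeR's quasi-likelihood test, 230 were higher in hsfa1 (0.431%) and 438 were lower (0.821%) at an adjusted p under 0.05, while 9596 had an unadjusted p under 0.05. Past a 2-fold difference there were 53 higher regions (0.0993%) and 59 lower regions (0.111%). With the replicate number as a block, 1237 regions were higher and 2086 lower, among them all 668 regions called without it, and 57 higher and 61 lower regions passed 2-fold. The split between higher and lower moved with the scaling, to 218 higher and 198 lower with total counts and 197 higher and 242 lower with loess offsets, and past 2-fold it did not (53 and 57, and 50 and 62). Leaving out 1 library gave 200 to 320 calls for 7 of the 8 libraries and 450 without hsfa1 column CK replicate 2. The lists past 2-fold then held 106 to 112 regions. Of these, 105 to 108 were past 2-fold in the same direction with all 8 libraries. So the count of small differences moved with the number of libraries and with the block, and the count past 2-fold stayed within 106 to 118 under these changes.

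**Figure D1:**
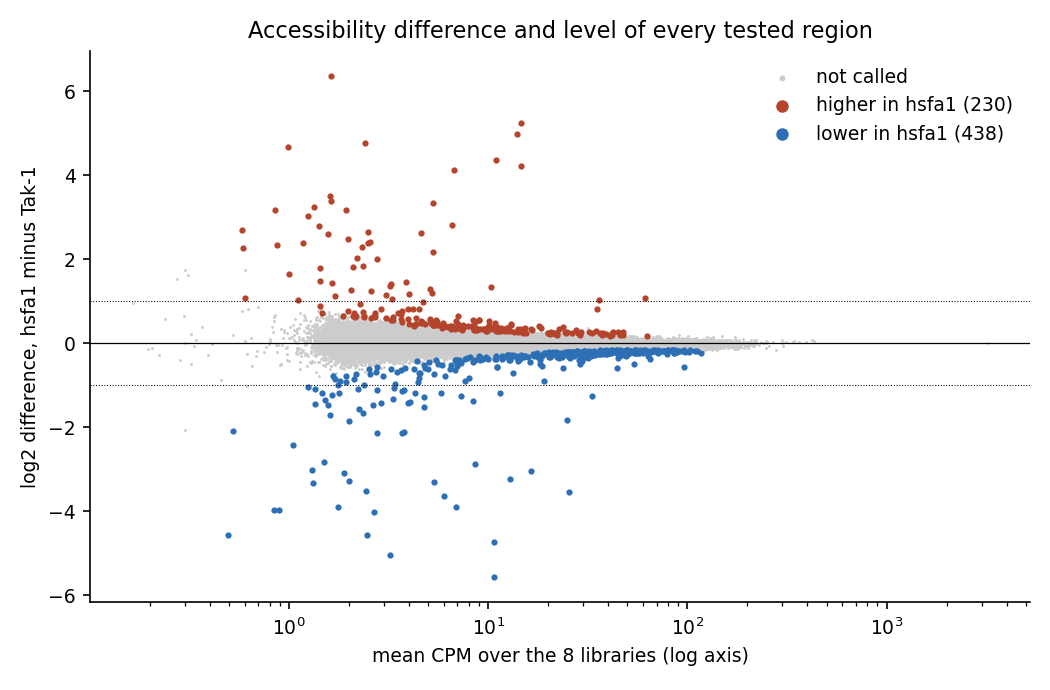
Each point is 1 of 53379 tested regions, with its mean CPM over the 8 libraries (horizontal, log axis) and its log2 difference, hsfa1 minus Tak-1 (vertical); dotted lines mark a 2-fold difference. Of the 230 higher and 438 lower regions, 53 higher and 59 lower lie outside the dotted lines, at low and at high levels.

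The called regions past 2-fold and those below it differed in their median width and level. The 53 higher and 59 lower regions past 2-fold had a median width of 146 and 186 bases and a median level of 2.36 and 2.78 CPM (CPM, counts scaled to library size with TMM factors), against 286 bases and 8.75 CPM over all tested regions. The 379 lower regions at or below 2-fold had a median width of 731 bases and a median level of 31.4 CPM, with a median log2 difference of -0.24. The 177 higher regions at or below 2-fold were closer to the average site, with 334 bases, 8.66 CPM and a median log2 difference of 0.38. The 556 regions at or below 2-fold are those called without the block. With it there were 2025 lower ones, with a median width of 733 bases and a median level of 30.3 CPM, and 1180 higher ones, with 320.5 bases and 8.82 CPM. High counts allow smaller differences to pass the test, and the part of depth and width in this split was not tested.

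The 4 hsfa1 libraries did not overlap the 4 Tak-1 libraries in any of the 112 regions past 2-fold. Nor did they in 654 of the 668 called (223 higher and 431 lower, 97.9%). Over all 53390 regions the lines did not overlap in 10.8%. The called regions were chosen on these same 8 libraries, so nothing is read from their separation. At 3 sites every hsfa1 library had at most 1 CPM and every Tak-1 library at least 5 CPM, and at 2 sites the reverse held. Values are given below in the order column ABA replicates 1 and 2, then column CK replicates 1 and 2.

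The region with the lowest difference lay at chr1:17091174-17091880. It had 0.668, 0.346, 0.611 and 0.211 CPM in hsfa1 libraries, against 20.7, 21.1, 20.8 and 20.7 CPM in Tak-1 libraries. All hsfa1 libraries were below 1 CPM and the Tak-1 libraries were nearly equal to each other. The log2 difference was -5.58 ± 0.158 (SE), with an adjusted p of 1.38e-11 by edgeR. Next came chr2:16067523-16067775, at 0.182, 0.173, 0.222 and 0.169 CPM in hsfa1 libraries and 5.66, 6.61, 6.28 and 6.33 CPM in Tak-1 libraries. Its log2 difference was -5.05 ± 0.164 (SE, edgeR adjusted p = 5.7e-11). A smaller site in the same locus, chr2:16068139-16068203, was lower as well, with a log2 difference of -3.97. The site at chr3:14178311-14178772 had 1.28, 0.735, 0.611 and 0.548 CPM in hsfa1 libraries, against 20.2, 20.3, 19.7 and 22.1 CPM in Tak-1 libraries. There the log2 difference was -4.74 ± 0.144 (SE, edgeR adjusted p = 2.79e-11).

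The most accessible of the strongly lowered sites, chr8:12328526-12329141, kept some signal. It had 3.52, 3.63, 4.78 and 4.13 CPM in hsfa1 libraries, against 48.3, 43.7, 44.9 and 50.9 CPM in Tak-1 libraries. The groups were far apart, with a log2 difference of -3.55 ± 0.0739 (SE) and an edgeR adjusted p of 4.47e-13. The other 6 of the 10 lowest among called regions that averaged 50 counts or more in a library, chr4:22635311-22635485, chr4:6690848-6691007, chr7:2993943-2994533, chr6:6582465-6582612, chr7:21560165-21560451 and chr5:8743657-8743816, had log2 differences from -4.57 to -3.51. Their mean levels were 0.197 to 0.874 CPM in hsfa1 and 3.30 to 12.9 CPM in Tak-1. Below that average of counts, chr3:921296-921372 at -4.57, chr5:9929362-9929478 at -3.97 and the chr2:16068139-16068203 site given above were as low.

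Gains were of the same size. The small site at chr7:17191798-17191892 had 3.55, 2.51, 3.42 and 3.35 CPM in hsfa1 libraries, against 0.0539, 0.0426, 0 and 0.0431 CPM in Tak-1 libraries. Tak-1 thus had next to no reads there, and the fitted log2 difference of 6.37 ± 0.322 (SE, edgeR adjusted p = 1.51e-08) rests on a group near 0. A larger gain in reads was seen at chr8:21310530-21311466. This region had 27.0, 28.5, 25.3 and 27.0 CPM in hsfa1 libraries, against 0.647, 1.26, 0.575 and 0.861 CPM in Tak-1 libraries. The log2 difference was 4.98 ± 0.127 (SE, edgeR adjusted p = 4.4e-12). On the male chromosome, chrV:4189325-4189532 had 4.37, 3.93, 4.95 and 5.42 CPM in hsfa1 libraries and 0.216, 0.170, 0.209 and 0.0861 CPM in Tak-1 libraries, with a log2 difference of 4.78 ± 0.211 (SE, edgeR adjusted p = 2.77e-09). The remaining 7 of the 10 highest among called regions with that average had log2 differences of 3.34 to 5.24. Below it, chr2:26028554-26028630 was at 4.67.

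**Figure D2:**
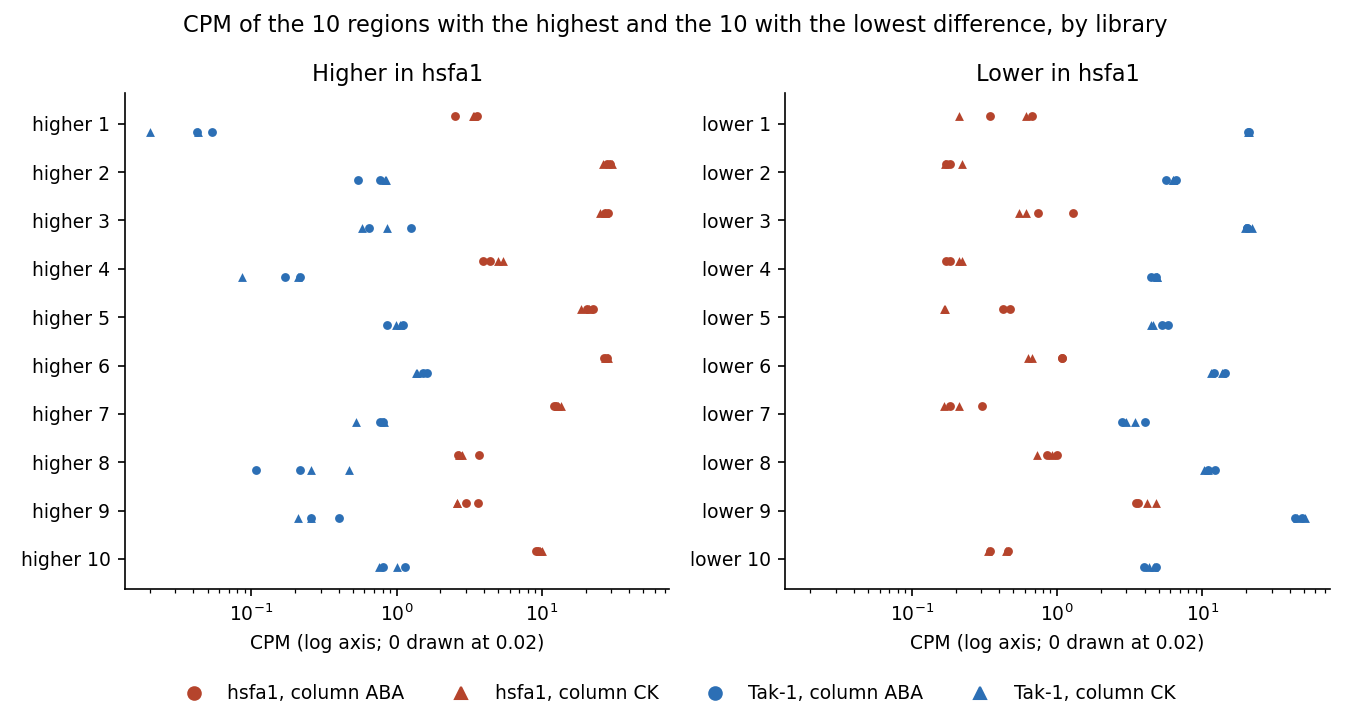
CPM (log axis) in each of the 8 libraries for the 10 regions with the highest (left) and the 10 with the lowest (right) log2 difference among called regions averaging 50 counts or more, ranked from the largest difference down; red is hsfa1, blue is Tak-1, circles are column ABA and triangles column CK. The regions were chosen on these libraries, and in all 20 every hsfa1 library lies on one side of every Tak-1 library, whichever the column name.

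Most of these sites stood alone. The 112 regions past 2-fold fell into 102 loci when regions within 5000 bases were joined, and 7 loci held more than 1 region, 17 regions in all. The largest was a stretch of chromosome 7 with 5 regions between 2583745 and 2587252, all higher in hsfa1. Its main sites were chr7:2586744-2587252, with 27.9, 29.5, 26.2 and 30.3 CPM in hsfa1 libraries and 0.539, 0.767, 0.837 and 0.840 CPM in Tak-1 libraries, and chr7:2585520-2586447, with 20.6, 22.6, 18.7 and 21.1 CPM in hsfa1 libraries and 0.863, 1.11, 0.994 and 1.06 CPM in Tak-1 libraries. The log2 differences were 5.24 ± 0.103 and 4.36 ± 0.0955 (SE, edgeR adjusted p = 2.86e-13 and 7.17e-13). The 3 smaller sites beside them had log2 differences of 2.26, 2.35 and 3.19. One locus on chromosome 4 held a site on each side of 0, chr4:2917072-2917242 at -1.43 and chr4:2918404-2918586 at 1.17.

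The called regions were spread over the genome. Between 1.06 and 1.51% of tested regions were called on each of the 8 autosomes. Chromosome 4 had the largest number past 2-fold among them, 9 higher and 17 lower of 6446 regions (0.403%), against 0.122 to 0.281% on the other autosomes. On chromosome V 7 regions were higher and 1 was lower of 144 (5.56%), with 2 higher and 1 lower past 2-fold (2.08%). On chromosome U none of 26 was called. Unplaced scaffolds had 4 lower regions and none higher of 122 (3.28%), with none past 2-fold. The median log2 difference on V was 0.087, against 0.006 over all regions. The V share of counts differed between replicates of a group as given above, and its part in the V calls was not tested.

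The strong differences between hsfa1 and Tak-1 were seen under both column names. Taken within column CK, which has 2 libraries per line, as a contrast in 1 fit of all 8 libraries, 51 regions were higher (0.0955%) and 68 lower (0.127%). Within column ABA, in the same fit, 46 were higher (0.0862%) and 63 lower (0.118%). The 2 differences share no library, but both were tested against a spread estimated from all 8, so the calls are not independent. Between them 94 regions were called in the same direction in both, which is 79.0% of the column CK calls and 86.2% of the column ABA calls, with none in opposite directions. Leaving out Tak-1 column CK replicate 1 or 2 lowered the column CK count to 70 and 63. With the replicate block the counts were 327 in column CK and 823 in column ABA.

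Within the 112 regions past 2-fold, which were chosen on all 8 libraries, the log2 differences under the 2 names correlated at 0.983 (Pearson) and 0.966 (Spearman). Over all 53379 regions these were 0.573 and 0.373, so the likeness of the called regions cannot be read as one of all regions. At chr1:17091174-17091880 they were -5.43 in column ABA and -5.74 in column CK, and at chr8:21310530-21311466 they were 4.82 in column ABA and 5.16 in column CK. A test of whether the genotype difference itself changed between the column names called 0 regions (0%) with edgeR, with 1319 at an unadjusted p under 0.05. DESeq2 also called 0, with 404 at an unadjusted p under 0.05. With 2 libraries per group, a change in the genotype difference that was small beside the spread would not have been detectable.

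**Figure D3:**
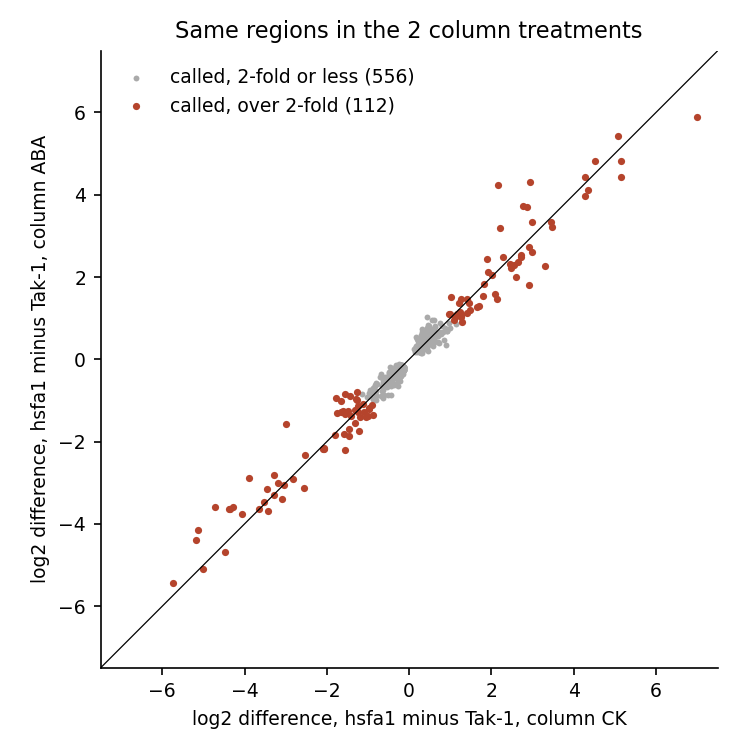
Log2 difference, hsfa1 minus Tak-1, within column CK (horizontal) and within column ABA (vertical) for the 668 called regions; red points are the 112 past 2-fold and the line marks equal values. The regions were chosen on these libraries, and all of them lie on the same side of 0 under both column names.

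The second comparison, dko against hsfb1, did not share most of these differences. In it 213 regions were higher in dko (0.399%) and 75 lower (0.14%) by edgeR. Of the 668 regions called between hsfa1 and Tak-1, 26 were called in the same direction in dko against hsfb1 and 39 in the opposite direction. The 26 were 3.89% of the calls of hsfa1 against Tak-1 and 9.35% of those of dko against hsfb1 among the regions tested in both. Of the 59 regions past 2-fold lower in hsfa1, 3 were lower, 21 were higher and 35 were not called in dko against hsfb1. Of the 52 higher regions that were tested there, 11 were higher, 6 were lower and 35 were not called. The medians were 0.14 for the lower regions and -0.02 for the higher regions, against -0.004 over all regions.

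The levels of the 4 lines were then set side by side. For each of the 112 regions, dko and hsfb1 were placed with whichever of hsfa1 and Tak-1 had the nearer mean on the log2(CPM + 0.1) scale. Both were nearer Tak-1 in 45 regions (15 higher and 30 lower) and nearer hsfa1 in 36 regions (28 higher and 8 lower). In 22 regions (6 higher and 16 lower) hsfb1 was placed with hsfa1 and dko with Tak-1. In 9 regions (4 higher and 5 lower) dko, the other line labelled as lacking HSFA1, was placed with hsfa1 and hsfb1 with Tak-1. This rule places a line even where it is far from both. In 21 of the 112 regions dko or hsfb1 lay more than 2-fold above or below both hsfa1 and Tak-1, among them 5 of the 45 and 10 of the 36. At chr5:10299240-10299886, 1 of the 45, the mean level was 0.981 CPM in hsfa1, 46.2 CPM in dko and 46.9 CPM in hsfb1, against 2.29 CPM in Tak-1.

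**Figure D4:**
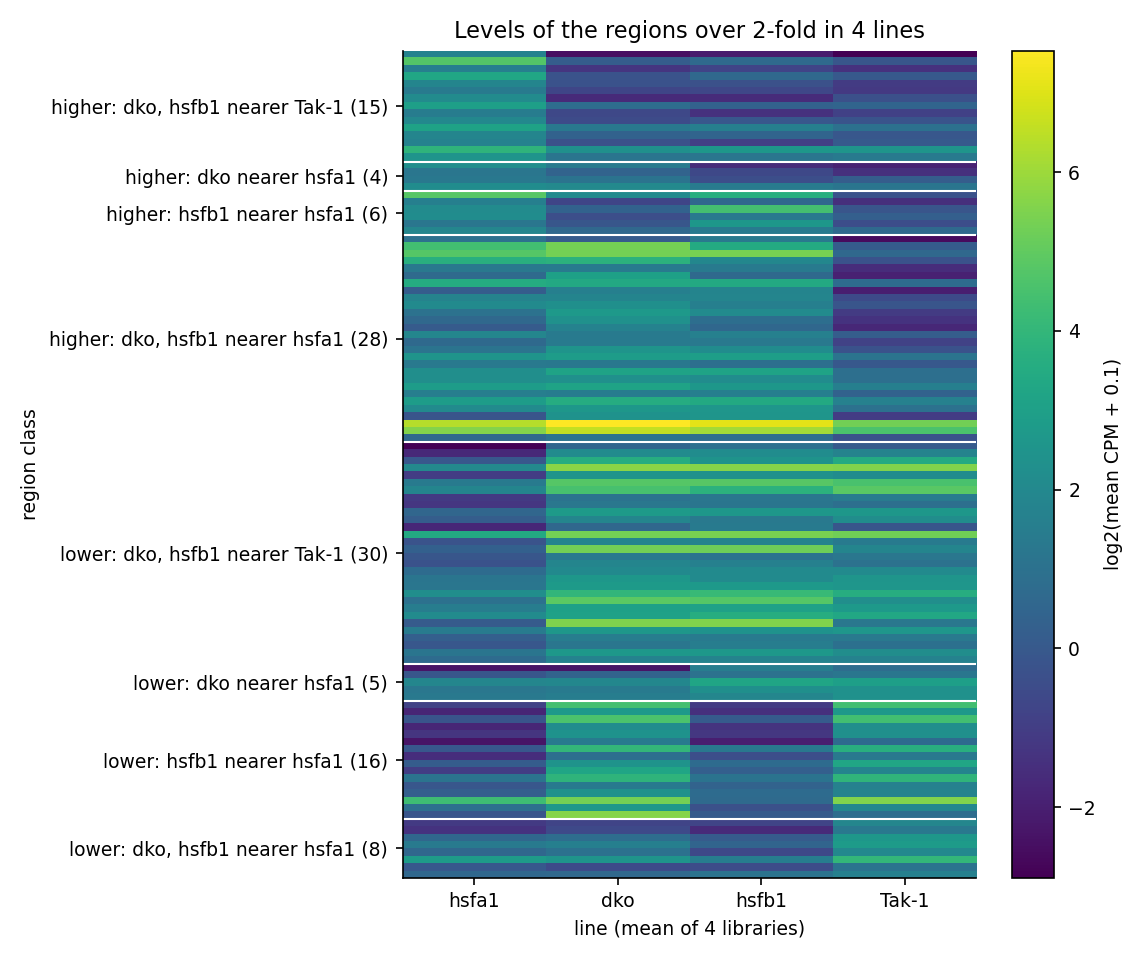
Mean level of the 112 regions past 2-fold in hsfa1, dko, hsfb1 and Tak-1 (colour, log2 of mean CPM + 0.1, 4 libraries per line), grouped by direction in hsfa1 and by whether dko and hsfb1 have the mean nearer hsfa1 or nearer Tak-1. Both are nearer Tak-1 in 45 regions and nearer hsfa1 in 36, and in 21 of the 112 regions dko or hsfb1 lies more than 2-fold outside the levels of hsfa1 and Tak-1.

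The lower regions in which hsfb1 was placed with hsfa1 included the 3 lowest of all. At chr1:17091174-17091880 dko had 20.4 to 22.9 CPM over its 4 libraries and hsfb1 had 0.149 to 0.635 CPM, so the double knockout was at the Tak-1 level and the hsfb1 knockout at the hsfa1 level. The log2 difference of dko from hsfb1 was 5.86 ± 0.187 (SE, edgeR adjusted p = 1.07e-11), opposite in sign to that of hsfa1 from Tak-1. At chr3:14178311-14178772 dko had 22.3 to 24.8 CPM and hsfb1 0.846 to 1.11 CPM, and at chr2:16067523-16067775 dko had 5.43 to 7.64 CPM and hsfb1 0.175 to 0.348 CPM. Both were opposite in sign as well, with log2 differences of 4.58 and 4.56.

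Among the regions where both were nearer Tak-1, chr8:12328526-12329141 had 48.5 to 57.8 CPM in dko and 40.3 to 56.5 CPM in hsfb1, which overlaps the Tak-1 values. The dko and hsfb1 levels did not differ past the threshold there (log2 difference 0.09 ± 0.0891 SE, edgeR adjusted p = 0.876). The gained site chr8:21310530-21311466 had 0.769 to 1.36 CPM in dko and 0.702 to 2.54 CPM in hsfb1, far below the hsfa1 libraries. At the other end, chr1:20272123-20272856 was a site that Tak-1 lacked. It had 26.7, 27.9, 27.4 and 28.5 CPM in hsfa1 libraries, 37.3 to 43.6 CPM in dko and 35.6 to 46.2 CPM in hsfb1, against 1.62, 1.53, 1.36 and 1.38 CPM in Tak-1 libraries.

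The clearest loss shared by hsfa1 and dko was a small site at chr5:9929362-9929478. It had 0.121, 0.130, 0.0834 and 0.0843 CPM in hsfa1 libraries, against 1.37, 1.79, 1.62 and 1.92 CPM in Tak-1 libraries, with a log2 difference of -3.97 ± 0.271 (SE, edgeR adjusted p = 5.7e-07). In dko it had 0 to 0.171 CPM, against 2.30 to 3.19 CPM in hsfb1, with a log2 difference of -4.67 ± 0.361 (SE, edgeR adjusted p = 5.31e-07). Both lines labelled as lacking HSFA1 were thus far below both lines labelled as having it. The gain at chrV:4189325-4189532 had the same arrangement, at 2.36 to 3.16 CPM in dko and 0.149 to 0.292 CPM in hsfb1.

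The heat experiment measured the same lines in other libraries and allowed the differences to be read again. Its regions were called separately, and a region was matched where the overlap was at least 50% of the shorter. More than 1 region could be matched to the same heat-table region, which could be far wider, so matched values are not independent. At 22 °C the heat table had 3913 regions higher (9.57%) and 3802 lower (9.3%) in hsfa1 of 40872 tested, and after heat 71 higher (0.174%) and 627 lower (1.53%). The split at 22 °C was 4022 higher and 2290 lower with total count scaling, which moved the median of all regions to 0.16, and 2925 and 4445 with DESeq2. At 22 °C the TMM factor was 0.828 in Tak-1 replicate 2, against 0.985 in Tak-1 replicate 1 and 0.991 and 0.995 in the hsfa1 libraries. The part of this in the calls was not tested. The count at 22 °C turned on single libraries. It was 75 without Tak-1 replicate 2, 17706 without Tak-1 replicate 1, 3732 without hsfa1 replicate 1 and 836 without hsfa1 replicate 2. The heated count was 369 without hsfa1 replicate 1 and 421 without hsfa1 replicate 2.

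Strong differences were called again more often than the background of all matched regions. Of the 47 lower regions past 2-fold with a match, 28 were lower at 22 °C (59.6%), 3 were higher and 16 were not called. Of the 40 higher regions with a match, 29 were higher at 22 °C (72.5%), 2 were lower and 9 were not called. Over all 47991 matched regions, 8.11% were higher and 12.1% were lower. Without Tak-1 replicate 2 at 22 °C, 17 of the 47 were lower and 2 higher, and 19 of the 40 were higher and none lower. After heat 27 of the 47 were lower (57.4%) and 22 of the 40 were higher (55.0%), against 1.08% and 0.133% over all matched regions. The log2 differences of the 87 matched regions correlated at 0.827 (Pearson) and 0.788 (Spearman) between the tables, against 0.38 and 0.358 over all 47991 matched regions. In both, all points share the 8 libraries of this comparison and the 4 libraries of the heat table. Points can also share a heat-table region. The median log2 difference over the 47 was -0.75 in the heat table and -1.53 in the ABA table, and over the 40 it was 1.48 and 2.09 in the same order. The regions were chosen for their size in the ABA table, so nothing is read from its larger medians.

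**Figure D5:**
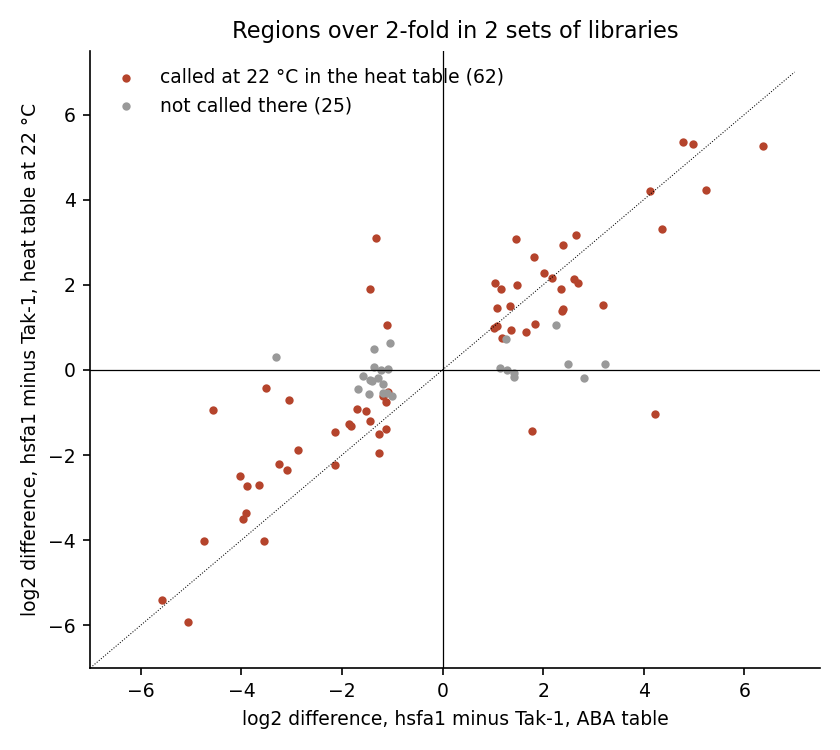
Log2 difference, hsfa1 minus Tak-1, in the ABA table (horizontal) and in separate libraries at 22 °C in the heat table (vertical) for the 87 regions past 2-fold with a match; red points were called in the heat table, and the dotted line marks equal values. In the heat table the median is -0.75 over the 47 lower and 1.48 over the 40 higher regions, and 5 called points lie in the opposite quadrants.

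At chr1:17091174-17091880 the heat table gave 0.760 and 0.362 CPM in hsfa1 libraries at 22 °C, against 21.1 and 26.5 CPM in Tak-1 libraries, a log2 difference of -5.40 ± 0.251 (SE, edgeR adjusted p = 9.64e-24). The pattern over the other lines was also the same there, at 19.4 and 20.1 CPM in dko and 1.17 and 0.429 CPM in hsfb1. The gained site chr8:21310530-21311466 had 41.9 and 46.9 CPM in hsfa1 libraries at 22 °C and 1.20 and 1.05 CPM in Tak-1 libraries, and after heat 45.7 and 43.6 CPM in hsfa1 and 1.55 and 1.58 CPM in Tak-1. The site at chr8:12328526-12329141 had 3.14 and 4.89 CPM in hsfa1 and 50.5 and 80.9 CPM in Tak-1 at 22 °C. In the chromosome 7 locus, chr7:2586744-2587252 had 18.9 and 23.5 CPM in hsfa1 and 1.05 and 1.20 CPM in Tak-1 at 22 °C.

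Some regions, which were not counted, did not have the same level in the hsfa1 libraries of the 2 experiments. The experiments carry different batch labels and were normalized separately. The site chr1:20272123-20272856, at 26.7 to 28.5 CPM in hsfa1 in the ABA table, had 1.24 and 1.72 CPM in hsfa1 at 22 °C in the heat table, against 2.68 and 3.39 CPM in Tak-1. The levels of the other lines were alike in both experiments, with 38.7 and 41.1 CPM in dko and 36.3 and 37.4 CPM in hsfb1 at 22 °C. The reverse was seen at chr1:15313615-15314024. There hsfa1 had 2.31, 2.12, 1.56 and 1.67 CPM and Tak-1 had 5.01, 3.88, 4.03 and 6.12 CPM in the ABA table, but hsfa1 had 26.3 and 21.0 CPM and Tak-1 2.25 and 3.27 CPM at 22 °C in the heat table. Both hsfa1 sets carry the same line label, and the levels of Tak-1 were low in both experiments. At chr4:22635311-22635485, 1 of the 10 lowest, hsfa1 had 0.173 to 0.222 CPM in the ABA table. At 22 °C in the heat table it had 2.14 and 3.80 CPM in hsfa1, against 7.14 and 4.34 CPM in Tak-1.

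The small differences were read in the same way, and their shares were not tested against those of the strong ones. Of the 372 matched lower regions at or below 2-fold, 129 were lower at 22 °C (34.7%) and 2 higher, with a median log2 difference of -0.30, against 12.1% and -0.04 over all matched regions. Of the 163 matched higher regions at or below 2-fold, 47 were higher (28.8%) and 2 lower, against 8.11% over all. After heat 27 of the 372 were lower (7.26%) and 6 of the 163 were higher (3.68%), against 1.08% and 0.133% over all matched regions. The calls at 22 °C rest on Tak-1 replicate 2 of the heat table as given above, and the lower regions were wide and highly accessible, whose part in these shares was not tested.

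Only 13 regions were called in the same direction in all 3 tests, hsfa1 against Tak-1, dko against hsfb1 and hsfa1 against Tak-1 at 22 °C in the heat table. Of these 10 were higher and 3 lower. They came from 47991 regions with a match in the heat experiment. The 3 lower were chr5:9929362-9929478, chr8:6825250-6825482, at 2.31 ± 0.390 CPM in hsfa1 and 5.09 ± 0.610 CPM in Tak-1 (SD, n = 4), and chr7:11486666-11487407, at 18.0 ± 0.540 CPM in hsfa1 and 21.3 ± 0.350 CPM in Tak-1. All 3 were matched to wider heat-table regions that they covered by less than 50%. The last difference was small, with a log2 value of -0.24 and an edgeR adjusted p of 0.0295. It missed the threshold under 10 of the alternatives, with edgeR adjusted p of 0.0539 to 0.127. The 13 are not a majority pattern. Of the 668 regions, 26 were called alike in dko against hsfb1 and 39 in the opposite direction. The losses at chr1:17091174-17091880, chr2:16067523-16067775 and chr3:14178311-14178772 were also called lower at 22 °C, but were opposite in dko against hsfb1.

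Of the 10 higher, 3 lay in the chromosome 7 locus and 1 on chromosome V. At chr7:2585520-2586447 dko had 33.6 to 46.0 CPM and hsfb1 8.18 to 16.0 CPM, so hsfb1 was above Tak-1 too. The strongest site of that locus, chr7:2586744-2587252, went the other way between these lines, at 2.96 to 5.20 CPM in dko and 11.4 to 12.9 CPM in hsfb1. Its log2 difference of dko from hsfb1 was -1.56 ± 0.133 (SE, edgeR adjusted p = 1.89e-06). At chr1:21098103-21098373 hsfa1 had 12.6, 12.2, 12.9 and 13.5 CPM and dko 11.8 to 15.3 CPM, against 3.48 to 4.08 CPM in hsfb1 and 0.809, 0.767, 0.523 and 0.818 CPM in Tak-1. Its log2 difference was 4.12 ± 0.116 between hsfa1 and Tak-1 and 1.86 ± 0.113 between dko and hsfb1 (SE, edgeR adjusted p = 1.38e-11 and 2.54e-08). At chr6:19094148-19094318 hsfa1 had 4.83, 3.41, 4.72 and 3.77 CPM, against 1.08, 0.597, 1.20 and 0.388 CPM in Tak-1, and the difference of dko from hsfb1 was 0.72 on the log2 scale. Both highly accessible regions among the 10, chr3:24852553-24853735 and chr5:8850760-8851569, were lowest in Tak-1. The first had 83.1 CPM in hsfa1, 185 CPM in dko and 139 CPM in hsfb1, against 39.4 CPM in Tak-1. The second had 48.3, 94.5 and 67.3 CPM in the same order, against 23.7 CPM in Tak-1. At chr3:12043878-12044198 and chr3:4218640-4219004, also among the 10, dko was above hsfb1 but below Tak-1. The former had 8.6 CPM in hsfa1, 1.49 CPM in dko and 0.297 CPM in hsfb1, against 5.48 CPM in Tak-1. The latter had 11.5, 5.35 and 0.614 CPM in the same order, against 8.61 CPM in Tak-1.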

How the data were processed

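The authors deposited counts of reads per accessible region, without normalization. Per the submitters' processing notes the tools included Bowtie2 2.4.4, MACS2 2.2.7.1 and featureCounts, with Subread 2.0.6 for counting, fastp 0.24.0 and FastQC 0.11.9 for reads, and bedtools, deepTools and SAMtools. The build, the treatment of duplicates and the pooling of peaks are not given in the sources used here. Per the labels' protocols, 50000 DAPI-stained nuclei were sorted from 1.5 g of gemmalings and tagged with Tn5. The members and lists were chosen with earlier results of these data known.

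The 8 libraries were fitted with edgeR 4.0.16 (R 4.3.3, limma 3.58.1), TMM factors of 0.987 to 1.02, the filterByExpr filter, which removed 11 regions, column name plus genotype, and the quasi-likelihood test. Two-sided p-values received a Benjamini-Hochberg adjustment across the regions of each fit, with a threshold of 0.05. Fits within a column name, of the interaction and of the heat table used a mean per group over the 8 libraries of their table, with 1 estimate of the spread. SE is the absolute log2 difference over the square root of F. CPM use TMM factors, from the 8 libraries for hsfa1 and Tak-1, from all 16 for dko and hsfb1, and within the heat table for its own. The methods were tested on simulated data with 200 known changes. Those counts were drawn independently for each library, so they cannot show how a pairing of replicate numbers affects the calls.

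Even numbers made up a share of 0.531 to 0.633 of counts in hsfa1 libraries and 0.536 to 0.576 in Tak-1 libraries. Replicate numbers were taken to pair the samples of the 4 groups, since the deviations of same-numbered samples correlated at 0.168 to 0.406 in every pair of groups. They did not pair those of dko and hsfb1 (-0.0911 to 0.304) or of the heat table (-0.18 to 0.135). In each of the 4 groups replicate 2 was also the deeper library, with the lower V share. A pairing of samples and an effect of depth thus cannot be told apart. The main fit left the pairing out, and the counts with the block are given beside its calls. Alternatives were total count scaling, loess offsets, the block, other filters, DESeq2 1.42.0, leaving out each library, other fits and halved counts.

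Named regions had an adjusted p under the threshold and averaged 50 counts or more in a library, and were the 10 highest and the 10 lowest by log2 difference, and, with no count minimum, the 5 highest and up to 5 lowest of those called alike in dko against hsfb1 and at 22 °C. Of the latter, 3 were lower. No interaction passed. Other regions in the text were chosen after their values were seen.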

Additional observations from a re-analysis of the deposited data

Results flagged for a closer look

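Dixon's gap test, which marks about 1 in 20 groups by chance, was applied to the 25 named regions within the 4 libraries of each line, 50 groups in all. It marked 1, the gained site chr4:16551525-16551617 in hsfa1, where column ABA replicate 1 had 3.68 CPM and the other hsfa1 libraries 2.64 to 2.80 CPM. All 4 remained above the Tak-1 libraries, which had 0.107 to 0.471 CPM.

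Of the 87 matched regions past 2-fold, 5 were called in opposite directions in the ABA table and at 22 °C in the heat table. In all 5, every hsfa1 library lay on one side of every Tak-1 library in the ABA table. At 22 °C in the heat table, with 2 libraries per line, every one lay on the other side. Only these 5 were examined, and such separation was not counted over all matched regions. The difference between the tables was not tested, and the tables were normalized separately. The log2 difference, hsfa1 minus Tak-1, was -1.44 in the ABA table and 1.90 in the heat table at chr4:9493315-9493448. This region covers less than 50% of its match in the heat table, and 4 opposite regions are left where the overlap must be 50% of both. The difference was -1.32 and 3.10 in the same order at chr1:15313615-15314024, -1.10 and 1.06 at chr5:19540773-19540846, 1.78 and -1.44 at chr7:6837657-6837895, and 4.23 and -1.03 at chr1:20272123-20272856.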

How the results depend on the processing

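Between hsfa1 and Tak-1, 668 regions were called, against 416 (218 higher and 198 lower) with total count scaling, which moved the median log2 difference to 0.025, 439 (197 and 242) with loess offsets, 3323 with the replicate block, 1256 with DESeq2, 353 with a mean per group over the 8 libraries, 188 with a mean per group over all 16, and 1821 with a robust fit, which was chosen after the data were seen. Leaving out 1 library gave 200 to 450. The cause of these changes was not tested, except that fewer libraries were fitted when 1 was left out. The 112 regions past 2-fold numbered 98 to 118 under every edgeR setting run, of which 98 to 112 were the same regions, and 106 to 112 without 1 library. DESeq2 gave 31, because it gave no adjusted p to the other 81, and all 112 had an unadjusted p under 0.05 in the same direction. Within column CK the count was 119, against 327 with the replicate block and 63 to 88 without 1 library. Within column ABA it was 109, against 823 with the replicate block, 165 with DESeq2 and 77 to 84 without 1 library. A lone library in a group was taken to be as variable as the rest. The interaction stayed at 0 under every setting. For dko against hsfb1 the count was 237 to 308 without 1 library. Of 26 regions shared with hsfa1 against Tak-1, 9 were past 2-fold in both. Another 26 regions were past 2-fold in both but in opposite directions. In separate fits with the replicate block, 12 regions were past 2-fold alike and 27 in opposite directions. In the heat table, 7715 regions at 22 °C became 3356 with loess offsets and 75 to 17706 without 1 library, and 698 heated regions became 464 with total count scaling and 369 to 512 without 1 library. The replicate block moved no other count by over 1.5 times. Of the 435 alternative values of the 25 named regions, 425 stayed past the threshold in the same direction, and the 10 that missed it were all of chr7:11486666-11487407. These leave out 13 of the regions under DESeq2, which gave them no adjusted p, and 2 removed by a minimum mean of 50 counts. Depth limits low sites most, and a difference below the spread between libraries was not detectable there. Annotation and motifs were not run.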
